A study of Mus musculus with 9 samples.

Results

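The Notch pathway was followed through 9 genes in sorted splenic B cells: the receptors Notch1 and Notch2, the receptor protease Adam10, the nuclear partners Rbpj and Maml1, and the target or feedback genes Dtx1, Hes1, Hes5 and Nrarp. These 9 were taken by gene symbol from the 24346 genes of each expression file, and every one of them was found in all 9 libraries. RNA-seq had been made from C57BL6 wild-type mice, with 3 libraries from each of 3 groups: follicular (FO) B cells at 8 weeks (young FO B cells), FO B cells at 50 weeks (aged FO B cells) and age-associated B cells (ABCs) at 50 weeks. ABCs of young mice were not analysed here, so ABCs could be set against FO B cells of the same age only at 50 weeks. The FO B gate took B220hi B cells that lacked CD43 and carried CD23, with low CD21. The ABC gate took B220hi B cells that lacked both CD43 and CD23, had low CD21 and carried CD11b together with CD11c. The values were FPKM, a fragment count scaled to transcript length and to the depth of the library. Scaling to length lets the levels of different genes be set side by side only approximately, since differences between genes other than length are not removed. Of the 9 genes, 8 had a mean of at least 1 FPKM in each comparison that included ABCs and were tested there, and Nrarp fell below that limit.

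Notch receptors are single-pass proteins that are read out by cleavage. A ligand on a neighbouring cell pulls on the receptor, Adam10 cuts it outside the membrane, gamma-secretase cuts it within the membrane, and the freed intracellular domain joins the DNA-binding protein Rbpj and a Mastermind coactivator such as Maml1 to switch on target genes. In the mouse spleen, signalling through Notch2 by the ligand Dll1 is known to direct B cells towards the marginal zone fate, and Dtx1, Hes1, Hes5 and Nrarp are commonly used as readouts of the pathway in lymphocytes.

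The binding word of Rbpj was looked for in the promoters of these genes, so that each readout gene could be seen beside its sequence. RefSeq promoter windows (build GRCm38.p6, 250 bases before to 50 bases after each start site) were matched for 8 of the 9 genes, all but Hes1. The word TGGGAA, on either strand, was present in 2 of these 8 genes, Hes5 and Rbpj, and in 25.6% of 32817 promoter windows. Its longer form GTGGGAA, which contains TGGGAA, was present in Hes5 alone among the 8 and in 6.39% of windows. Hes5 held 2 matches, at bases -226 to -221 on the opposite strand and at -82 to -77 on the gene's strand, and both extended to GTGGGAA. Of all windows, 0.256% held 2 or more GTGGGAA. Lfng, a glycosyltransferase that modifies the receptors and is described further on, held TGGGAA at -135 to -130 on the opposite strand and at -108 to -103 on the gene's strand, the second extending to GTGGGAA. Of the 46 pathway genes beyond the 9 that had a window, Lfng included, 16 held TGGGAA and 7 held GTGGGAA in at least 1 window. These 46 genes had 60 windows and the 8 genes above had 9. Counts by gene are therefore not on the same scale as the percents of windows. The 250 bases before the start site are printed for the matched pair Hes5 and Lfng and, for contrast, for the readout genes Nrarp and Dtx1, whose windows held no match. They run 5′ to 3′ on the gene's strand, at chr4:154960673-154960922 (plus strand) for Hes5, chr5:140607091-140607340 (plus) for Lfng, chr2:25180508-25180757 (plus) for Nrarp and chr5:120711670-120711919 (minus) for Dtx1, and capitals mark TGGGAA or its reverse complement.
Hes5: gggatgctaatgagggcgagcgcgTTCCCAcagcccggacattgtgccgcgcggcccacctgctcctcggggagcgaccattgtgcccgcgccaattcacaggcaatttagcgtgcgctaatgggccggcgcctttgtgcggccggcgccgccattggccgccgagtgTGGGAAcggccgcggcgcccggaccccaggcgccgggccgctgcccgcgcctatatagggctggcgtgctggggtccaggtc
Lfng: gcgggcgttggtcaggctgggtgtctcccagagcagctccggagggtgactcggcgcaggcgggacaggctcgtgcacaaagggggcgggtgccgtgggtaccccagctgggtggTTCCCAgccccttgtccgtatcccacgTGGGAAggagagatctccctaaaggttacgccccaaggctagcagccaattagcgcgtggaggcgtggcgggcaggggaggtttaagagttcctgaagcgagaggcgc
Nrarp: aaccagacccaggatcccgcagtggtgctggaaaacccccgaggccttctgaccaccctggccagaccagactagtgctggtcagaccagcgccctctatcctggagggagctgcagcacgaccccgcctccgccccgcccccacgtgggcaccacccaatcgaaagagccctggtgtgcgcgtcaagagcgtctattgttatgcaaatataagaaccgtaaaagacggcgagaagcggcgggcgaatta
Dtx1: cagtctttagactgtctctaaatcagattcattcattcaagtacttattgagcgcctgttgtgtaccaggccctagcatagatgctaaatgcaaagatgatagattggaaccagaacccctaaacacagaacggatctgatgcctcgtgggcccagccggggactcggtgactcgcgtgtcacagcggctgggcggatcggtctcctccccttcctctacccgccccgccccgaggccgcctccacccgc
A match is a string of letters, and no binding of Rbpj was measured in these libraries.

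In FO B cells the 9 genes fell into a high and a low tier, and the ABCs broke the high tier apart. In young FO B cells Adam10, Hes1, Notch2 and Dtx1 had means of 32.3, 29.4, 28.0 and 27.1 FPKM, with ranges that overlapped from each gene to the next. Rbpj followed at 8.53 FPKM, Hes5 at 5.58, Maml1 at 2.999, Notch1 at 1.60 and Nrarp at 1.083, and only Notch1 and Nrarp overlapped among these. The order was nearly the same in aged FO B cells, where Adam10, Dtx1, Hes1 and Notch2 had means of 33.2, 32.7, 30.8 and 27.9 FPKM and again overlapped from each to the next. In ABCs only Adam10 (37.8 FPKM) and Dtx1 (33.1 FPKM) remained in the high tier. Notch2 stood apart below them at 16.1 FPKM and Rbpj next at 10.99, followed by Hes1 at 7.01, Hes5 at 2.77, Maml1 at 2.26 and Notch1 at 1.84, each of which overlapped with its neighbour from Rbpj down to Notch1. Nrarp was last at 0.0808 FPKM, below all libraries of Notch1.

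**Figure D1:**
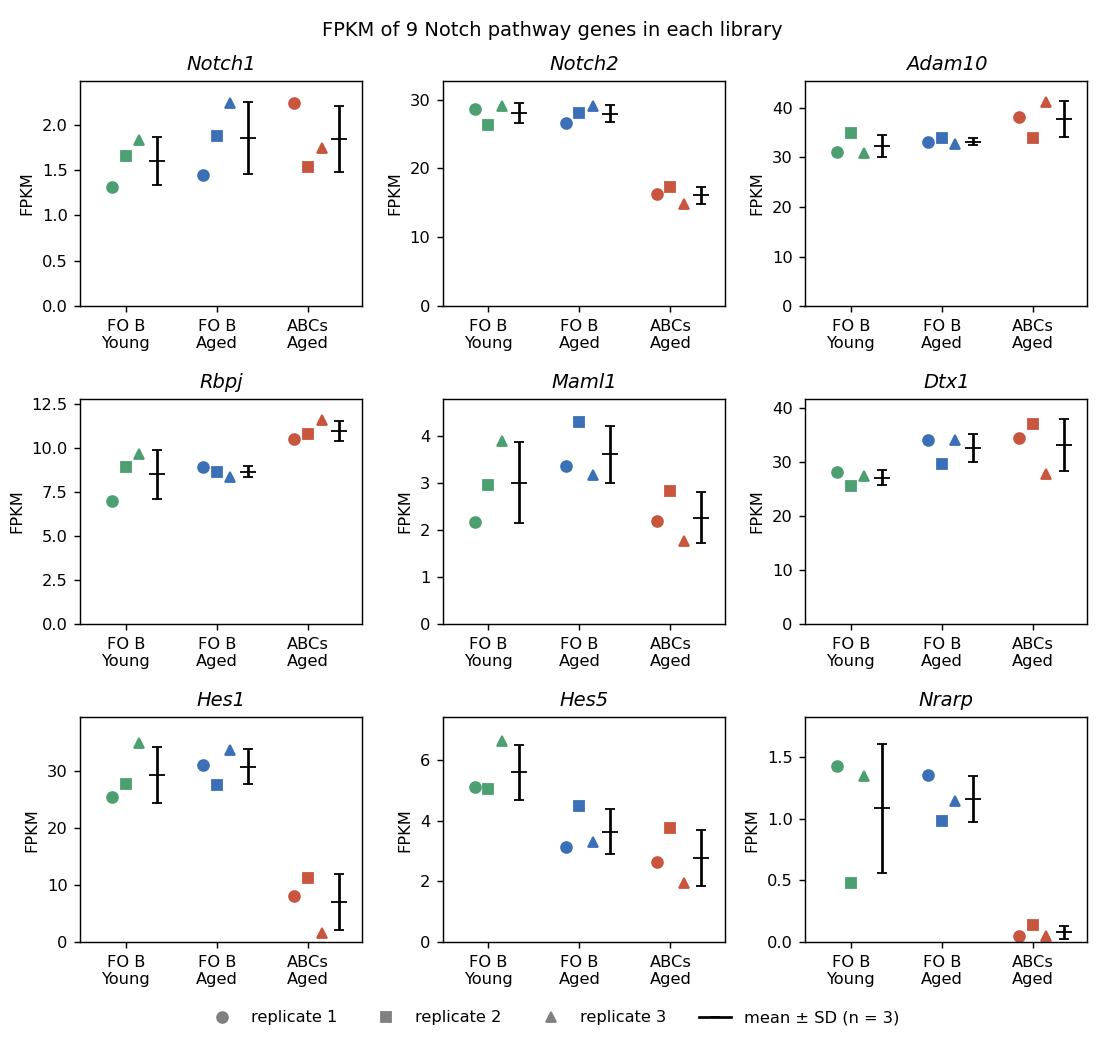
FPKM of the 9 Notch pathway genes in each library, 1 panel per gene with its own linear axis from 0. Points are libraries coloured by group with the replicate number as the symbol, and bars are the mean ± SD of 3 libraries. Notch2, Hes1 and Nrarp were lower in all 3 ABC libraries than in all 6 FO B libraries, while Dtx1 in ABCs lay at 27.8 to 37.1 FPKM beside 29.7 to 34.1 in aged FO B cells.

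The libraries were of similar depth and matched their gates, with 1 library apart from the others. The depth read from the spacing of low values was about 7420000 to 9020000 mapped reads. Fcer2a, which encodes CD23, was at 697, 716 and 728 FPKM in aged FO B cells and at 4.15, 6.95 and 0.463 FPKM in ABCs, while Tbx21, which encodes the ABC factor T-bet, was at 7.45, 8.72 and 4.75 against 189, 179 and 165 FPKM. ABC replicate 3 had the lowest value of Fcer2a and of a second sort marker. Cr2, which encodes CD21, was at 3.27%, 5.56% and 0.494% of the aged FO B mean in ABC replicates 1, 2 and 3. B-lineage markers, among them Cd79a, Cd79b, Ms4a1 and Pax5, summed to 6495 to 8743 FPKM in ABCs and to 8036 to 8434 in aged FO B cells. Of 6 T cell markers, 5 were under 1 FPKM in every library and Cd3g was the exception, so that the list summed to 4.98 to 37.8 FPKM in ABCs against 0.170 to 0.592. Of 5 macrophage and monocyte markers, 2 were under 1 FPKM in every library, among them Csf1r, and the list summed to 193 to 238 FPKM in ABCs against 9.05 to 14.7, with Adgre1 at 174, 222 and 199 FPKM in ABCs. The summed lists of plasma cell markers (180 to 210 against 112 to 130 FPKM) and germinal center markers (104 to 120 against 14.1 to 16.1) were also higher in ABCs, while those of dendritic cell markers overlapped (4.04 to 6.45 against 1.93 to 4.202), and the part of these cells in the Notch results was not tested. The endothelial list, in which Cdh5 and Kdr were under 1 FPKM throughout, was at 39.4 to 54.9 FPKM in ABCs and 67.6 to 77.1 in aged FO B cells, and neutrophil markers summed to at most 0.359 FPKM in ABCs and 21.3 in aged FO B cells. Of 8 marginal zone markers, 3 passed as higher and 3 as lower in ABCs, so their sums of 194 to 222 FPKM in ABCs and 216 to 242 in aged FO B cells hide opposite differences.

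ABCs and FO B cells of the same age were compared to ask which Notch genes differ between these subsets. Of the 8 genes tested, 3 passed a false discovery rate (FDR) of 0.05, with Notch2 and Hes1 lower and Rbpj higher in ABCs (limma on log2(FPKM + 1), Benjamini-Hochberg adjustment over 10412 genes). This share has to be read against a wide difference between the subsets, since 35.9% of all genes tested passed, 19.4% as higher and 16.5% as lower in ABCs. The ranges of the groups did not overlap for 5 of the 8 tested genes and for Nrarp, beside 52.6% of all genes. The median log2 fold change was -0.16 over the 8 genes and -0.01 over all genes tested. With upper quartile scaling the median of all genes moved to 0.15, and 80.4% instead of 54.0% of the genes that passed were higher in ABCs, whereas quantile normalization gave 44.8%. Notch2 and Hes1 were lower and Rbpj was higher in ABCs under each of these scalings. Each group had 3 libraries, for which an exact permutation test cannot give a p under 0.1.

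The receptors differed from each other. Notch2 (chr3:98013527-98150361, GRCm38, plus strand), the main Notch receptor of mature B cells, was at 28.6, 26.3 and 29.1 FPKM in young FO B cells, at 26.6, 28.1 and 29.1 FPKM in aged FO B cells, and at 16.2, 17.3 and 14.8 FPKM in ABCs. All 3 ABC libraries lay below all 6 FO B libraries. Relative to aged FO B cells Notch2 fell by 0.76 on the log2 scale in ABCs (SE 0.09, 95% confidence interval -0.96 to -0.56, limma adjusted p = 0.000745), and the ratio of the means was 0.576. The call held under all 15 alternative settings, with adjusted p-values between 6.88e-05 and 0.0186. In each library Notch2 exceeded 64.6% to 66.9% in aged FO B cells and 49.3% to 54.0% in ABCs of the genes at 1 FPKM or more. Notch1 (chr2:26457903-26516663, minus strand), the receptor that drives T cell commitment, was at 1.31, 1.65 and 1.83 FPKM in young FO B cells, 1.44, 1.87 and 2.24 in aged FO B cells and 2.24, 1.53 and 1.74 in ABCs. These 3 ranges overlapped, and the difference between ABCs and aged FO B cells was -0.00 on the log2 scale, with an interval of -0.42 to 0.41 (limma adjusted p = 0.988). Notch1 rested on 109 to 185 reads per library in aged FO B cells and 129 to 171 in ABCs. The ratio of Notch2 to Notch1, chosen after its values were seen, was 15.5 ± 2.77 (SD, n = 3) in aged FO B cells and 9.002 ± 2.08 in ABCs, and the groups did not overlap (two-sided exact permutation p = 0.1, the smallest possible).

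Adam10 (chr9:70678997-70780229, plus strand), which makes the first cut in a ligand-bound receptor, was at 31.1, 34.9 and 30.9 FPKM in young FO B cells, 33.1, 33.9 and 32.6 in aged FO B cells and 38.2, 33.9 and 41.2 in ABCs. The second ABC library and the second aged FO B library differed by less than the rounding printed here, although the ranges were just apart. The difference was 0.18 on the log2 scale, with an interval of -0.03 to 0.38 (limma adjusted p = 0.15), and it passed in 1 of 15 alternative settings, upper quartile scaling (adjusted p = 0.0474). The nuclear partners had values in opposite directions. Rbpj (chr5:53466152-53657362, plus strand), the DNA-binding protein of the pathway, was at 8.96, 8.68 and 8.35 FPKM in aged FO B cells and at 10.5, 10.8 and 11.6 FPKM in ABCs, with all ABC libraries higher. It rose by 0.31 on the log2 scale (SE 0.09, interval 0.10 to 0.52, limma adjusted p = 0.0332), a ratio of 1.27. This call was lost in 10 of 15 alternative settings, among them the fits without any single one of the 6 libraries, where the adjusted p lay between 0.0638 and 0.102. In young FO B cells Rbpj was more variable, at 6.99, 8.92 and 9.68 FPKM. Maml1 (chr11:50255634-50292311, minus strand), a Mastermind coactivator, was at 3.36, 4.29 and 3.15 FPKM in aged FO B cells and 2.19, 2.82 and 1.76 in ABCs. The ranges did not overlap, and the difference of -0.50 (SE 0.17) did not pass the threshold (limma adjusted p = 0.0594). It passed in 4 of 14 alternative settings, namely quantile normalization (adjusted p = 0.0229), no trend (0.0447), the replicate block (0.0455) and without ABC replicate 2 (0.0408).

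Of the readout genes Hes1 fell, Nrarp was lower and not tested, and Dtx1 and Hes5 did not pass. Hes1 (chr16:30064384-30067796, plus strand), a transcriptional repressor and a classical Notch target, was at 31.2, 27.7 and 33.7 FPKM in aged FO B cells and 8.16, 11.2 and 1.66 FPKM in ABCs. All ABC libraries lay below all FO B libraries, and replicate 3 was far below the other two. The corresponding reads were 314, 339 and 371 against 83, 126 and 17. Hes1 fell by 2.25 on the log2 scale (SE 0.51, interval -3.45 to -1.05, limma adjusted p = 0.0131), and the ratio of means was 4.40 in favour of FO B cells. Without ABC replicate 3 the log2 fold change was -1.58 (limma adjusted p = 0.000225), and over all 15 alternatives the adjusted p lay between 0.000225 and 0.0488.

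Dtx1 (chr5:120680202-120711927, minus strand), a ubiquitin ligase of the Deltex family, was at 34.1, 29.7 and 34.1 FPKM in aged FO B cells and at 34.5, 37.1 and 27.8 FPKM in ABCs. The ABC libraries spanned the FO B range on both sides. The difference was 0.01 on the log2 scale with an interval of -0.27 to 0.29 (limma adjusted p = 0.945), which covers changes of up to about that size in either direction. Hes5 (chr4:154960923-154962371, plus strand), a repressor related to Hes1 and the gene with the matched promoter printed above, was at 3.13, 4.48 and 3.29 FPKM in aged FO B cells and 2.64, 3.74 and 1.94 in ABCs. Its ranges overlapped, and the difference was -0.31 with an interval of -0.81 to 0.18 (limma adjusted p = 0.283), resting on 105 reads in the FO B group and 76 in the ABC group. Dtx1 and Hes1 thus stood at similar levels in FO B cells and apart in ABCs. The ratio of Dtx1 to Hes1, also chosen after its values were seen, was 1.096, 1.07 and 1.01 in aged FO B cells and 4.23, 3.31 and 16.7 in ABC replicates 1, 2 and 3 (two-sided exact permutation p = 0.1, the smallest possible). The ratio of Hes1 to Notch2, likewise chosen after its values were seen, was 1.17, 0.985 and 1.16 in aged FO B cells and 0.503, 0.649 and 0.112 in ABCs, and the groups did not overlap.

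Nrarp (chr2:25180758-25183339, plus strand, 1 exon), a small ankyrin-repeat protein that binds the Notch complex and limits it, was at 1.35, 0.983 and 1.14 FPKM in aged FO B cells and 0.0515, 0.140 and 0.0511 FPKM in ABCs. These values came from 26, 23 and 24 reads in FO B cells and from 1, 3 and 1 reads in ABCs. At matched depth the level in FO B cells was 13.9 times that in ABCs, with a 95% interval of 5.67 to 43.9 that covers counting error only (exact binomial on the summed reads). Nrarp was below the filter of a mean of 1 FPKM and was not tested with the others, and without the filter its log2 fold change was -0.995 (limma adjusted p = 0.00148), a value that the added 1 FPKM compresses. In these bulk libraries, fewer cells that carry a transcript and less RNA per cell cannot be told apart.

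**Figure D2:**
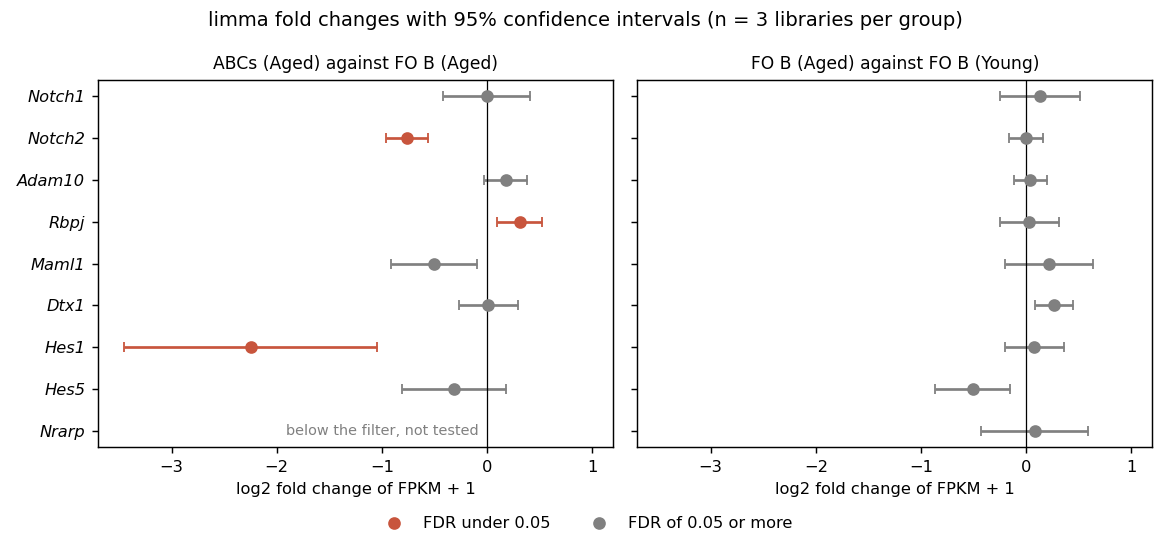
log2 fold changes of FPKM + 1 with 95% confidence intervals from limma, for ABCs against aged FO B cells (left) and aged against young FO B cells (right), 3 libraries per group. In the left panel Notch2 (-0.76), Hes1 (-2.25) and Rbpj (0.31) had an FDR under 0.05 and Nrarp was below the filter; in the right panel no gene did.

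The low values of ABC replicate 3 extended to part of the pathway. Relative to the mean of aged FO B cells, Hes1 was at 26.5%, 36.4% and 5.38% in ABC replicates 1, 2 and 3, and Lfng was at 13.5%, 20.8% and 1.34%. Neurl3, a Neuralized-type ubiquitin ligase, was at 4.47%, 7.68% and 1.24%. Nrarp was at 4.45%, 12.1% and 4.41%, and its 1 to 3 reads per ABC library were too few to show whether replicate 3 was lower. Notch2 was at 58.1%, 61.9% and 53.0%, Dtx1 at 106%, 114% and 85.0%, Hes5 at 72.8%, 103% and 53.4%, and Rbpj at 121%, 125% and 134%. The replicate with the lowest Cr2 and Fcer2a was therefore also lowest for Hes1, Hes5, Dtx1, Notch2 and Maml1 and highest for Rbpj and Adam10 among the ABC libraries. Pan-B genes were also lowest in it, with Ms4a1 at 94.1%, 90.9% and 66.7% and Cd79a at 103%, 112% and 77.7% of the aged FO B mean in ABC replicates 1, 2 and 3. What these lower levels contribute to the Notch values was not tested. Without it, the fold changes of Hes1 and Neurl3 (-3.81, limma adjusted p = 1.49e-05) passed the threshold, and that of Lfng, which reaches the filter through the FO B group, was -1.62.

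**Figure D3:**
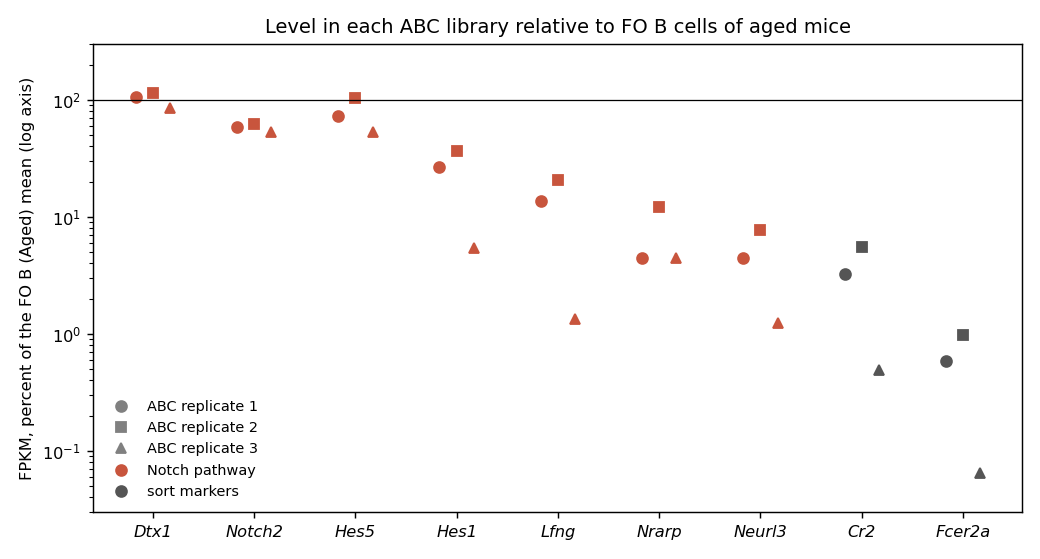
FPKM in each ABC library as a percent of the mean of aged FO B cells (log axis; the line marks that mean), for 7 Notch pathway genes and, in grey, the sort markers Cr2 and Fcer2a. Symbols are the ABC replicates. Replicate 3 was the lowest for Hes1 (5.38%), Lfng (1.34%), Neurl3 (1.24%), Cr2 (0.494%) and Fcer2a (0.0650%).

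Age alone was examined in FO B cells, 50 against 8 weeks, where few genes differed. None of the 9 genes, all of which could be tested, passed the FDR (limma with Benjamini-Hochberg adjustment over 10122 genes), beside 0.464% of all genes, 0.346% as higher and 0.119% as lower in aged mice. At an unadjusted limma p under 0.05 there were 2 of the 9, Dtx1 and Hes5, and 1298 of all genes, and these were also the 2 whose ranges did not overlap, beside 18.6% of all genes. Dtx1 was at 28.3, 25.5 and 27.5 FPKM in young FO B cells, below the 29.7 to 34.1 FPKM of aged mice. The difference was 0.26 on the log2 scale, with an interval of 0.08 to 0.44 (limma adjusted p = 0.219). Hes5 was at 5.09, 5.04 and 6.62 FPKM in young FO B cells, above the 3.13 to 4.48 FPKM of aged mice, from 157 reads against 105. Its difference was -0.51, with an interval of -0.87 to -0.16 (limma adjusted p = 0.217). The other 7 genes had overlapping ranges. Notch2 differed by -0.00 with an interval of -0.17 to 0.16, Adam10 by 0.04 (-0.12 to 0.20) and Rbpj by 0.03 (-0.25 to 0.31). Hes1 was at 25.4, 27.7 and 34.9 FPKM in young FO B cells and differed by 0.08 (-0.20 to 0.36), and Nrarp was at 1.43, 0.481 and 1.34 FPKM, from 30, 10 and 28 reads, and differed by 0.08 (-0.43 to 0.59). The number of genes that passed among all genes depended on single libraries, with 47 in the full comparison, 19 without aged replicate 1, 21 without young replicate 1 and 23 without young replicate 2, while the number among the 9 remained 0 in each of these.

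ABCs were also set against young FO B cells, a comparison in which subset and age both differ and which shares its ABC libraries with the one within aged mice. Of 8 genes tested, Notch2, Hes1 and Hes5 passed, all of them lower in ABCs, beside 40.7% of all genes, 21.6% as higher and 19.1% as lower. Ranges did not overlap for 4 of the 8 and for Nrarp, beside 55.3% of all genes. Notch2 fell by 0.76 (limma adjusted p = 0.000591) and Hes1 by 2.17 (adjusted p = 0.0141), values close to those within aged mice. Hes5 fell by 0.82 (SE 0.20, interval -1.29 to -0.35, limma adjusted p = 0.0153), a ratio of means of 0.497, and its aged FO B libraries lay between the other two groups with overlap on the ABC side. Without young replicate 3, which had the highest Hes1 and Hes5 among the young libraries, only 1 of these 3 calls remained, with adjusted p-values of 0.0544 for Hes1 and 0.0594 for Hes5. Rbpj (0.34, adjusted p = 0.0694) and Dtx1 (0.27, adjusted p = 0.0967) did not pass in limma. Rbpj passed with all 9 libraries fitted (adjusted p = 0.0355), Dtx1 without ABC replicate 3 (adjusted p = 0.00761), and Adam10 without ABC replicate 2 (adjusted p = 0.0456). Nrarp had 5 reads in ABCs and 68 in young FO B cells, a ratio of 13.1 with a counting interval of 5.35 to 41.7.

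Beyond the 9 genes, 61 other genes of the pathway were read from lists by role. In ABCs against aged FO B cells 40 of them were tested, and 8 rose, 14 fell and 18 did not pass. Their median log2 fold change was -0.07. The background of 35.9% of all genes, 19.4% as higher and 16.5% as lower, applies here and to each list below. The number that passed was 22 in all, 12 without aged FO B replicate 1 and 11 without aged FO B replicate 3, and 13 with upper quartile scaling.

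Of 5 ligands, Dll1, the marginal zone ligand of Notch2, was the one that reached the filter, and it did so through the aged FO B group in which it was higher. It fell by 0.86 (limma adjusted p = 0.00456), from 1.83, 2.13 and 1.82 FPKM in aged FO B cells to 0.568, 0.616 and 0.638 in ABCs. The ABC libraries were all lower and close to each other. Against young FO B cells, which had a mean of 1.15 FPKM, Dll1 was below the filter and was not tested. Its reads were 98 in young FO B cells, 168 in aged FO B cells and 50 in ABCs, so that at matched depth it was 3.19 times higher in aged FO B cells than in ABCs (counting interval 2.31 to 4.46) and 1.89 times higher in young FO B cells (1.33 to 2.71). Jag1, a ligand named after its values were seen, was below the filter and higher in ABCs, with 1, 0 and 4 reads in aged FO B cells and 6, 14 and 14 in ABCs (limma adjusted p = 0.0479 without the filter). Notch3 and Notch4 were below the filter, with at most 8 and 16 reads in any library. Among the 5 glycosylation genes, the Fringe enzyme Lfng, which sets the ligand preference of Notch receptors and is used with Notch2 in marginal zone B cells, fell by 1.86 (SE 0.23, limma adjusted p = 0.00115), having passed the filter through the FO B group. It was at 4.27, 3.95 and 4.83 FPKM in aged FO B cells and at 0.588, 0.904 and 0.0583 FPKM in ABCs, from 72, 81 and 89 reads against 10, 17 and 1. The other 4, Mfng, Rfng, Pofut1 and Poglut1, did not pass. Mfng, a second Fringe enzyme, was at 39.1, 33.95 and 39.7 against 31.6, 30.6 and 22.4 FPKM.

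Of the 6 tested cleavage genes 2 rose, 1 fell and 3 did not pass, beside 19.4% of all genes higher and 16.5% lower. Psen2, a subunit of gamma-secretase, was at 47.6, 43.5 and 52.3 FPKM in aged FO B cells and 37.7, 36.4 and 29.0 FPKM in ABCs, with all ABC libraries lower. It fell by 0.47 on the log2 scale (SE 0.12, limma adjusted p = 0.0199). Aph1a, another subunit of that enzyme, was at 9.11, 11.7 and 8.54 FPKM in aged FO B cells and 13.8, 11.9 and 14.4 FPKM in ABCs, and rose by 0.42 (limma adjusted p = 0.0456). The call of Psen2 was lost with upper quartile scaling (0.267) and without aged FO B replicate 1 (0.0631) or 3 (0.0736). That of Aph1a was lost in 8 of 15 alternative settings. Among these were no filter on low values (0.0846), TPM scaling (0.0717), no trend (0.0513) and the replicate block (0.0907). The others were the fits without aged FO B replicate 1 (0.133) or 3 (0.14) or ABC replicate 1 (0.117) or 3 (0.0923).

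Of the 6 tested coactivators 4 fell by small amounts and none rose, beside 16.5% of all genes lower and 19.4% higher. They were the acetyltransferases Crebbp (-0.52, limma adjusted p = 0.00525), Ep300 (-0.36, 0.0134) and Kat2a (-0.31, 0.0371) and the Mastermind protein Maml2 (-0.44, 0.0276). All 4 lost their call with upper quartile scaling (adjusted p = 0.118 to 0.54). Ep300 lost it also without aged FO B replicate 3 (0.0551). Maml2 lost it without aged FO B replicate 2 (0.0816) or 3 (0.0961) or ABC replicate 1 (0.0834) or 2 (0.0739), and Kat2a without any aged FO B replicate (0.078 to 0.11) or without ABC replicate 1 (0.0945) or 3 (0.0761). With no filter on low values Maml2 (0.0588) and Kat2a (0.0561) lost it too, as did Kat2a with the replicate block (0.0672). Maml3, named after its values were seen, was below the filter in ABCs, with 72, 69 and 59 reads in aged FO B cells and 1, 15 and 3 in ABCs.

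Of the 10 tested corepressors 2 rose, 3 fell and 5 did not pass, beside 19.4% of all genes higher and 16.5% lower. Tle4, a Groucho-type corepressor, was at 21.7, 19.9 and 19.4 FPKM in aged FO B cells and 12.4, 12.4 and 4.83 FPKM in ABCs (-1.07, SE 0.31, limma adjusted p = 0.0322), and its relative Tle3 had the opposite direction, at 5.74, 5.89 and 6.44 against 9.59, 8.37 and 9.87 FPKM (0.55, limma adjusted p = 0.00725). The histone demethylase Kdm5a fell by 0.39 (limma adjusted p = 0.0104), a call that upper quartile scaling ended (0.282). The call of Tle4 was lost with that scaling (0.0935), with no filter on low values (0.0699) and without aged FO B replicate 1 (0.0986), 2 (0.0797) or 3 (0.0809).

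Of the 10 tested genes of endocytosis and ubiquitin ligation 3 rose, 3 fell and 4 did not pass. The shares of all genes were 19.4% higher and 16.5% lower. Neurl3 had the largest difference of the 40 pathway genes. It was at 69.9, 87.7 and 76.6 FPKM in aged FO B cells and 3.49, 5.99 and 0.968 FPKM in ABCs, a fall of 22.4 times between the means (-4.32, SE 0.41, limma adjusted p = 0.000359). The Deltex genes other than Dtx1 did not share a direction: Dtx3 and Dtx4 rose, Dtx2 fell by 0.31 (limma adjusted p = 0.0481) and Dtx3l did not pass (-0.29, limma adjusted p = 0.0666). Dtx3 was at 5.89, 10.7 and 3.76 against 14.3, 19.5 and 10.3 FPKM, with ranges that overlapped (1.07, limma adjusted p = 0.0477), and Dtx4 at 0.905, 1.02 and 0.808 against 1.71, 1.94 and 1.89 FPKM (0.58, limma adjusted p = 0.0214), having passed the filter through the ABC group. Dtx2 and Dtx3l were named after their values were seen, and the call of Dtx2 was lost with upper quartile scaling (0.465) and without any aged FO B replicate (0.0686 to 0.145) or without ABC replicate 1 (0.0937) or 2 (0.122). No filter on low values (0.0771) and the replicate block (0.0823) also ended the call of Dtx2. Fbxw7, which targets the Notch intracellular domain for degradation, rose by 0.61 (limma adjusted p = 0.00695). The call of Dtx3 was lost without aged FO B replicate 1 (0.127) or 3 (0.13) or ABC replicate 1 (0.105) or 2 (0.124). No filter on low values (0.0984), TPM scaling (0.0556) and no trend (0.0624) ended it too. That of Dtx4 was lost without aged FO B replicate 1 (0.0629) or 3 (0.0703) or ABC replicate 2 (0.0596). Quantile normalization (0.0847) and the replicate block (0.0528) also ended the call of Dtx4.

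Of 10 further targets 8 were below the filter, among them every Hey gene. Myc, a growth regulator that Notch activates in several lymphoid settings, was at 36.3, 35.3 and 32.8 FPKM in aged FO B cells and 16.8, 15.1 and 11.1 FPKM in ABCs, and fell by 1.24 (limma adjusted p = 0.000862). Hes6, a Hes family member that is not a typical Notch target, rose by 0.39 (limma adjusted p = 0.00865). Between aged and young FO B cells none of 41 tested pathway genes passed in limma, with 4 at an unadjusted p under 0.05, beside 1298 of 10122 genes, and 6 with ranges apart, beside 18.6% of all genes. In ABCs against young FO B cells 39 were tested, of which 8 rose and 13 fell beside 21.6% and 19.1% of all genes. Lfng was at -1.65, Neurl3 at -4.44 and Myc at -1.07 on the log2 scale (limma adjusted p = 0.00201, 0.000232 and 0.00173). Lfng passed the filter through the young FO B group in which it was higher, with means of 3.65 FPKM there and 0.517 in ABCs.

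**Figure D4:**
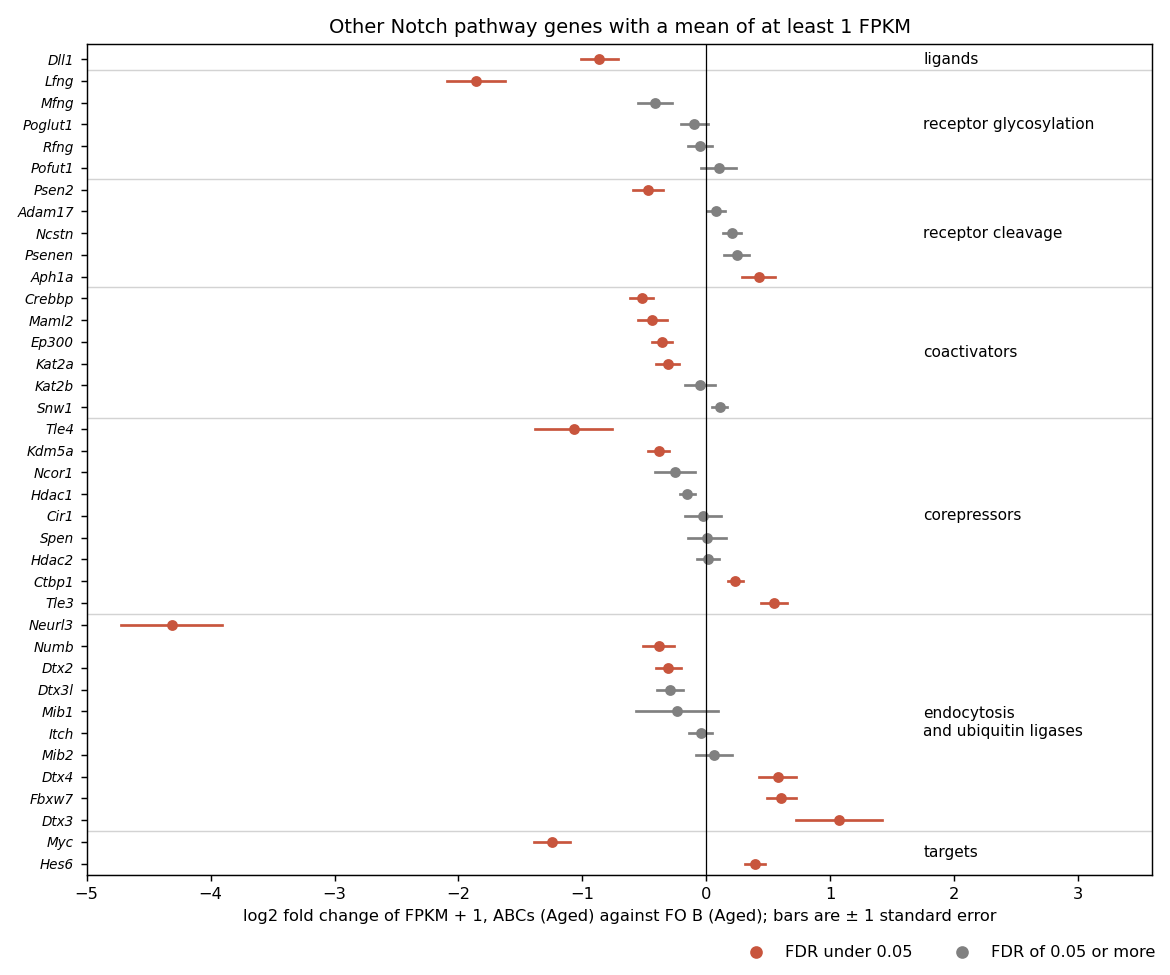
log2 fold changes of FPKM + 1 with ± 1 standard error for 38 of the 40 other Notch pathway genes that had a mean of at least 1 FPKM, in ABCs against aged FO B cells, grouped by role. Red marks an FDR under 0.05. Neurl3 (-4.32), Lfng (-1.86) and Myc (-1.24) lay furthest to the left, and Dtx3 (1.07) and Fbxw7 (0.61) furthest to the right.

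The genes whose pattern over the 9 libraries was most like that of a Notch gene were ranked by Pearson correlation of log2(FPKM + 1) among 10375 genes, as a description. The 9 libraries fall into groups that differ widely, so any gene that separates ABCs from FO B cells correlates with Notch2 or Hes1. For Notch2 the 3 closest were Fam84b (r = 0.995), Dennd2d (0.993) and Slc25a37 (0.993). Dennd2d, for example, had means of 28.3, 27.1 and 2.004 FPKM in young FO B cells, aged FO B cells and ABCs. For Hes1 they were Rpl10a (0.995), Cyp27a1 (0.993) and Pik3ip1 (0.992), and Cyp27a1 had means of 26.7, 30.1 and 7.03 FPKM. For Dtx1 they were Pde8a (0.946), Fam173b (0.933) and Alox5ap (0.928), each higher in both aged groups than in young FO B cells by its mean, such as 2.45, 6.09 and 6.26 FPKM for Alox5ap. For Notch1 they were Pomp (0.923), Pms2 (0.905) and Mcm9 (0.899), and Pomp had group means of 204, 207 and 210 FPKM.

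Overlapping annotation bears on some of these values, because reads of overlapping genes cannot be told apart without strand. In the GENCODE M21 annotation of GRCm38, Dtx1, Hes1 and Adam10 overlapped no other gene. Nrarp, Rbpj and Maml1 each overlapped 1 or more antisense genes, Hes5 a noncoding gene on the opposite strand, Notch1 a microRNA gene and noncoding genes on the opposite strand, and Notch2 a pair of provisional transcript records on its own strand.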

How the data were processed

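RNA was sequenced from 9 libraries of sorted splenic B cells, 3 per group, with groups and replicate numbers taken from the labels. The deposited files give 1 FPKM value per gene and library, made by the authors with the TopHat2, Bowtie2, SAMtools and Cufflinks tools against mm10. The labels list TopHat2 2.1.1, Bowtie2 2.2.8, SAMtools 0.1.18 and Cuffdiff 2.2.1, and the methods give other versions of the first 3. The library kit is not described as stranded. The 9 genes, the pathway and marker lists and the naming rule (in each pathway list, up to 4 genes with the largest fold change among those past the FDR) were chosen with earlier results of these data known.

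FPKM values were tested as log2(FPKM + 1) with limma 3.58.1 in R 4.3.3 (eBayes with a trend) on the 6 libraries of the groups compared, for genes whose mean reached 1 FPKM, with Benjamini-Hochberg adjustment over all genes tested and a threshold of 0.05. Fold changes are therefore on the log2(FPKM + 1) scale, which understates those of low genes. Single values were compared with two-sided exact permutation tests over 20 orders. The script was tested on simulated data before use. FPKM values of low genes were whole multiples of 1 read, from which each library's relative depth and reads of single genes were read back where all values lay within 0.05 of a whole number. This set the depth at 7420000 to 9020000 mapped reads, and counting intervals (95%, exact binomial) cover counting error only. Promoters came from RefSeq (GRCm38.p6) and gene positions from GENCODE M21. Nothing in the labels says whether libraries with the same number came from 1 mouse, and the p-values measure the spread between these libraries. Alternatives were another pseudocount, filter, scaling, moderation, threshold or sample set, a replicate block, and leaving out each library. Some genes of the lists are counted or summed but not reported here by name.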

Additional observations from a re-analysis of the deposited data

How the results depend on the processing

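No call of the 9 genes reversed direction, while differences that did not pass crossed 0 among the alternatives for Notch1 (-0.16 to 0.12) and Dtx1 (-0.07 to 0.19) within aged mice, for Notch2, Hes1, Rbpj, Nrarp and Adam10 for age (each between -0.15 and 0.21) and for Notch1 against young FO B cells (-0.03 to 0.21). For ABCs against aged FO B cells, 102 of 118 alternative values stayed on the same side of the threshold, 10 (all of Rbpj) lost it and 6 gained it. For aged against young FO B cells all 130 stayed, and for ABCs against young FO B cells 112 of 118 did. At an FDR of 0.01, the calls within aged mice went from 3 to 1 for the 9 genes, from 22 to 9 for the other pathway genes and from 3739 to 2072 for all genes. Against young FO B cells they went from 3 to 1, from 21 to 10 and from 4248 to 2465, and for age alone from 47 to 17 for all genes. Upper quartile scaling gave 13 pathway calls within aged mice, and 10 pathway calls and 2774 calls of all genes against young FO B cells, where 66.6% instead of 53.0% were then higher in ABCs (44.0% with quantile normalization). For age it moved the median of all genes to -0.12 and the share of higher calls from 74.5% to 47.1%. For age, all genes gave 15 calls with no filter on low values, 30 without a trend and 20 with all 9 libraries fitted. Leaving out 1 library gave 11 to 18 pathway calls within aged mice, 19 to 69 calls of all genes for age, and 1 to 4 calls of the 9 genes against young FO B cells. Whether the replicate numbers pair the libraries could not be settled from 3 libraries per group. For same-numbered libraries within aged mice the deviations from the group mean had correlations of 0.08, -0.02 and 0.11. Those for different numbers lay between -0.11 and 0.06, and not every library correlated best with its own number. With a replicate block there were 3 calls of the 9 genes, 17 of the pathway and 3448 of all genes within aged mice, 0, 0 and 37 for age, and 3, 18 and 3508 against young FO B cells. The block ended the call of Rbpj (adjusted p = 0.071) and gave one for Maml1 (adjusted p = 0.0455). Depth limits Nrarp, which had 1 to 3 reads per ABC library. The causes of these shifts were not tested.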
